A study of Mus musculus with 40 samples.

Results

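The genes described here are 36 components of T cell receptor signalling, picked by name from the 55421 genes of a mouse count table. They were chosen for their known roles, with earlier results of these data known. All 36 were found in the table by symbol, and all passed the filter on low counts in each fit used below. They comprise 4 invariant receptor chains, 4 accessory receptors, 9 proximal kinases and adaptors, 8 downstream signalling genes, 10 negative regulators and Ptprc, which encodes the phosphatase CD45.

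Polyadenylated RNA was counted from its 3′ ends in CD4+ T cells sorted from perfused mice that the labels give as wild type. Regulatory T cells (Treg) were positive for a Foxp3-linked Thy1.1 reporter and conventional T cells (Tconv) were negative for it, so the cells of both groups come from animals with that reporter, and 2000 cells went into each library. The 10 sources were blood, spleen, lymph node (LN), Peyer's patch (PP), kidney, liver, lung, pancreas and the intraepithelial (IEL) and lamina propria (LPL) lymphocytes of the small intestine. There were 3 Treg libraries and 1 Tconv library from every source, hence 30 and 10 in all. The labels used here give no age, no treatment beyond perfusion and digestion, and no statement of which libraries share an animal, so the spread between libraries may in part be technical. Blood, spleen and LN are called lymphoid sources below, kidney, liver, lung and pancreas solid organs, and IEL and LPL the gut wall. "Tissue" means the solid organs and the gut wall together, and PP stands on neither side.

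A T cell recognises peptide through its receptor, and the CD3 and zeta chains carry the signal into the cell. The kinase Lck phosphorylates these chains, Zap70 docks on them and phosphorylates the scaffolds LAT and SLP-76 (encoded by Lcp2), and phospholipase C-gamma1 then makes the second messengers that drive calcium-NFAT, Ras and NF-kB signalling. Phosphatases, ubiquitin ligases, adaptors and diacylglycerol kinases restrain each step, and Treg depend on the same receptor for their development and suppressive function.

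Promoter sequences are printed for 4 members. The CD3 genes lie side by side yet had unlike log2 differences in gut wall Treg, with no test between them. Themis showed the largest difference between Treg and Tconv. The sequences are RefSeq's for GRCm38.p6 and run 5′ to 3′ on the gene's strand over the 250 bases before the start site. Capitals mark E-box letters, CAGGTG on one strand and CACCTG when read from the other. They also mark ETS letters, GGAAGT on one strand and ACTTCC when read from the other. Cd3g and Cd3d stand head to head on chromosome 9 with 1354 bases between the gene models, and Cd3e follows 11400 bases beyond Cd3d.
Cd3g, chr9:44980432-44980681, minus strand: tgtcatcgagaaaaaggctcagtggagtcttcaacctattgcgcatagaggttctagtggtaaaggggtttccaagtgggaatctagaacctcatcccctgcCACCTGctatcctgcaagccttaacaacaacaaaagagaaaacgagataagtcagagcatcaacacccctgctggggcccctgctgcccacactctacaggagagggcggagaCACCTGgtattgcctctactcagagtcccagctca
Cd3d, chr9:44981536-44981785, plus strand: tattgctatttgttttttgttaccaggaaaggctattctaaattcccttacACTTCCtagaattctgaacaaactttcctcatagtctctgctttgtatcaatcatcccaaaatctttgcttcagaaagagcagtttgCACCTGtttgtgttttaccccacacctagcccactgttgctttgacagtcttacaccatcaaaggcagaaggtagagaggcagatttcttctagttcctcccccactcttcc
Cd3e, chr9:45009612-45009861, minus strand: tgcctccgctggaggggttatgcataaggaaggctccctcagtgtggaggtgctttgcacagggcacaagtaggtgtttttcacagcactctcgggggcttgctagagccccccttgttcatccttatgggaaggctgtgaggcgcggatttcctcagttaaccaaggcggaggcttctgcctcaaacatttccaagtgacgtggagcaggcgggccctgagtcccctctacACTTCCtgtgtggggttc
Themis, chr10:28668110-28668359, plus strand: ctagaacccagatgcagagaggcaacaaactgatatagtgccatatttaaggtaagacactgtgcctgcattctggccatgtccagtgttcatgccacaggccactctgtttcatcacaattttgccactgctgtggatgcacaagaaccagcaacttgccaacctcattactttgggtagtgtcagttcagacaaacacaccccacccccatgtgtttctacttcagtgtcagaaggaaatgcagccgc

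The Cd3g window held 2 E-box matches, the Cd3d window 1 E-box and 1 ETS match, the Cd3e window 1 ETS match and the Themis window none. Promoters were found for 30 of the 36 members, and no promoter was matched for Cd2, Cd4, Cd6, Malt1, Nfatc1 and Sla. Of the 45 promoter windows of these 30 genes, 33.3% held the E-box letters and 42.2% the ETS letters, against 17.2% and 19.7% of all 32851 windows. AP-1 letters, TGAGTCA on one strand and TGACTCA when read from the other, stood in no member's window and in 4.46% of all windows. These are letter matches only and say nothing about which factor binds.

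Total counts ran from 12197980 to 28823493 per library, and pairs of Treg replicates varied 21.7 to 401 times as much as sampling of reads would give. Levels below are CPM, counts scaled to the library total with TMM factors, which are not divided by gene length. Foxp3 lay between 68.2 and 309 CPM in the 30 Treg libraries and between 0.161 and 6.74 CPM in the 10 Tconv libraries, and the 2 groups did not overlap. Trac, the constant gene of the receptor alpha chain, had a median of 1484 CPM in Treg and was above 0 in each library. Markers of CD8, gamma delta and natural killer cells summed to 0.00148% to 0.00642% of counts in Treg and 0.00426% to 0.0328% in Tconv. Of the 5, 2 were called lower in Treg. Ncr1 of that list was at 0 in 21 of 30 Treg and in 5 of 10 Tconv libraries. Cd8b1 and Trdc were above 0 in each library, with medians of 25.4 and 6.21 CPM in Treg and 41.0 and 8.04 CPM in Tconv. Klrd1 had a median of 0.0628 CPM in Treg and 15.8 CPM in Tconv. Cd8a had medians of 0.621 and 1.44 CPM, and reached 165.8 CPM in a Tconv library. Of the other lists, 2 of 3 endothelial markers were lower in Treg, 1 of 6 B cell markers was higher, and of the 5 intestinal epithelial markers tested of 6, 1 was higher and 1 lower. The endothelial markers Cdh5 and Kdr were each at 0 in 23 of 30 Treg and in 2 of 10 Tconv libraries. The part of these differences in the comparison of Treg with Tconv was not tested. Marker genes of pancreatic acinar cells took 1.7% to 7.56% of counts in the pancreas Treg libraries and at most 0.00131% in lymphoid Treg, and intestinal epithelial markers 0.006% to 0.137% in gut wall Treg and at most 0.00443% in lymphoid Treg. Across genes, the correlation of a library's log2 CPM deviation with log2 gene length ran from 0.051 to 0.138 in gut wall Treg, from -0.178 to 0.094 in solid organ Treg and from -0.152 to 0.005 in lymphoid Treg. An offset for this length trend was fitted as an alternative, and where it changed a call named below its value is given. Gm26917, a noncoding RNA gene, took 0.176% to 4.67% of counts in Treg and at most 0.577% in Tconv, with 2.12% or more in all blood and liver Treg libraries. Its part in the results was not tested. Cd247, Plcg1, Nfatc3, Dgka and Sla2 overlap the opposite-strand genes Pou2f1, Zhx3, Esrp2, Pmel and Rab5if, and no source says whether strand was used when counting, so the reads of such a pair cannot be told apart.

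The first comparison asked how Treg differ from Tconv, with source as a factor over all 40 libraries. A gene was called at a Benjamini-Hochberg adjusted p below 0.05 in edgeR's quasi-likelihood test over all genes tested. Among the 36 members 5 were higher in Treg and 5 were lower, against a background of 9.86% of all genes called higher and 7.26% called lower. Their median log2 fold change was -0.05, and that of all genes tested was -0.0033. The members that rose were Ubash3b, Cd2, Cd5, Sla and Cd6, and those that fell were Themis, Txk, Ptpn6, Grap2 and Lat. All 10 calls held when any 1 of the 40 libraries was left out.

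None of the 4 receptor chains passed the test. Cd3d, Cd3e, Cd3g and Cd247 (the zeta chain) had log2 fold changes from -0.11 to -0.02 with standard errors of at most 0.10. Cd3e, for example, averaged 1002 CPM over the Treg libraries (SD 156, n = 30) and 1026 CPM over the Tconv libraries (SD 279, n = 10).

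Among the accessory receptors 3 of 4 rose. Cd2, which encodes an adhesion receptor that amplifies receptor signals, lay between 348 and 2003 CPM in Treg with a median of 720.3 CPM, and between 138 and 687 CPM in Tconv with a median of 417 CPM. In each of the 10 sources all 3 Treg libraries stood above the Tconv library, although the 2 ranges overlapped across sources. The log2 fold change of Cd2 was 0.94 ± 0.14 (SE, edgeR adjusted p = 3.6e-06). Cd5, a scavenger-receptor family inhibitor whose surface level follows receptor signal strength, rose by 0.67 ± 0.11 on the log2 scale (SE, edgeR adjusted p = 3e-05). All Treg libraries exceeded the Tconv library for Cd5 in 9 of 10 sources. Cd6, its neighbour on chromosome 19 with 50338 bases between the gene models, rose by 0.50 ± 0.08 (SE, edgeR adjusted p = 3.5e-05). Cd4, which encodes the coreceptor, did not pass the test at -0.16 ± 0.11 (SE).

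**Figure D1:**
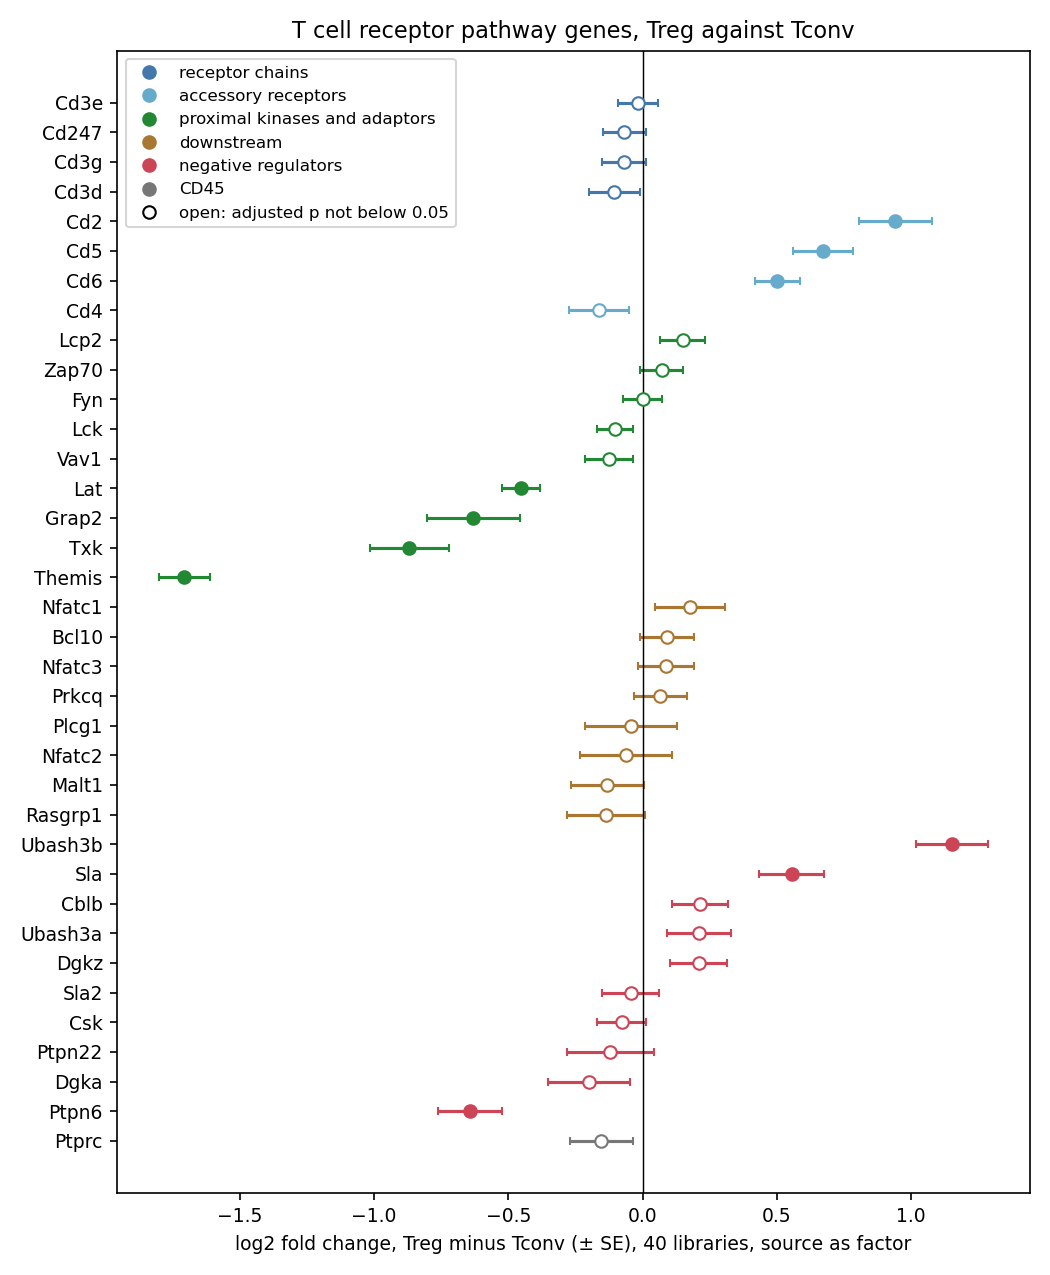
Log2 fold change of each of the 36 genes between Treg and Tconv, with the standard error as a bar, grouped and coloured by role. Filled points passed the test: Themis is lowest at -1.71, Ubash3b highest at 1.15, and all 4 receptor chains lie between -0.11 and -0.02.

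In the group of 9 proximal kinases and adaptors 4 members were lower in Treg and none was higher. Themis encodes an adaptor that is best known for its part in thymocyte selection. Its level ran from 54.2 to 120 CPM in Treg with a median of 82.2 CPM, and from 211 to 342 CPM in Tconv with a median of 257 CPM. All 30 Treg libraries lay below all 10 Tconv libraries (0.133% of all genes separated the groups in either direction), in solid organs and gut wall as in blood. The log2 fold change of Themis was -1.71 ± 0.09 (SE, edgeR adjusted p = 4.6e-15), and by source the log2 ratio of the mean Treg to the Tconv level ran from -2.12 in LN to -1.19 in blood.

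The other 3 that fell were smaller. Txk encodes a Tec-family kinase and fell by 0.87 ± 0.15 on the log2 scale (SE, edgeR adjusted p = 4.7e-05), with all Treg libraries below the Tconv library in 7 of 10 sources. Grap2 encodes the adaptor GADS, which links LAT to SLP-76, and had a log2 fold change of -0.63 ± 0.17 (SE, edgeR adjusted p = 0.0089). In liver, 1 of the 10 sources, all 3 Treg libraries stood above Tconv for Grap2. Lat encodes the membrane scaffold itself, and its median was 374 CPM in Treg and 525 CPM in Tconv. All Treg libraries were below the Tconv library for Lat in 9 of 10 sources, with a log2 fold change of -0.45 ± 0.07 (SE, edgeR adjusted p = 1.5e-05). Lck, Fyn, Zap70, Lcp2 and the exchange factor gene Vav1 did not pass the test, with log2 fold changes from -0.13 (Vav1) to 0.15 (Lcp2).

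No member of the downstream group passed the test. The 8 genes were Plcg1, Prkcq (protein kinase C-theta), Malt1 and Bcl10 (which couple to NF-kB), Rasgrp1 (which activates Ras), Nfatc1, Nfatc2 and Nfatc3, and their log2 fold changes ran from -0.14 (Rasgrp1) to 0.18 (Nfatc1).

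Of the 10 negative regulators 2 rose and 1 fell. Ubash3b encodes the phosphatase Sts-1, which dephosphorylates Zap70. It lay between 61.1 and 192 CPM in Treg with a median of 100.1 CPM, and between 34.3 and 65.7 CPM in Tconv with a median of 49.0 CPM. Of the 30 Treg libraries 29 lay above all Tconv libraries, and all 3 Treg libraries exceeded Tconv in each of the 10 sources. The log2 fold change of Ubash3b was 1.15 ± 0.13 (SE, edgeR adjusted p = 7.5e-08). Its relative Ubash3a had 0.21 ± 0.12 (SE) and did not pass.

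Sla encodes the Src-like adaptor SLAP, which promotes degradation of the receptor complex, and rose by 0.55 ± 0.12 on the log2 scale (SE, edgeR adjusted p = 0.001). Treg stood above Tconv for Sla in 8 of 10 sources, while all 3 liver Treg libraries, at 455 to 515 CPM, lay below the liver Tconv library at 654 CPM. Ptpn6 encodes the phosphatase SHP-1 and fell by 0.64 ± 0.12 on the log2 scale (SE, edgeR adjusted p = 0.00017), with all Treg libraries below the Tconv library in 8 of 10 sources. The diacylglycerol kinase genes Dgka (-0.20 ± 0.15, SE) and Dgkz (0.21 ± 0.11, SE) did not pass, nor did Cblb, Csk, Ptpn22, Sla2 or, outside the group, Ptprc.

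**Figure D2:**
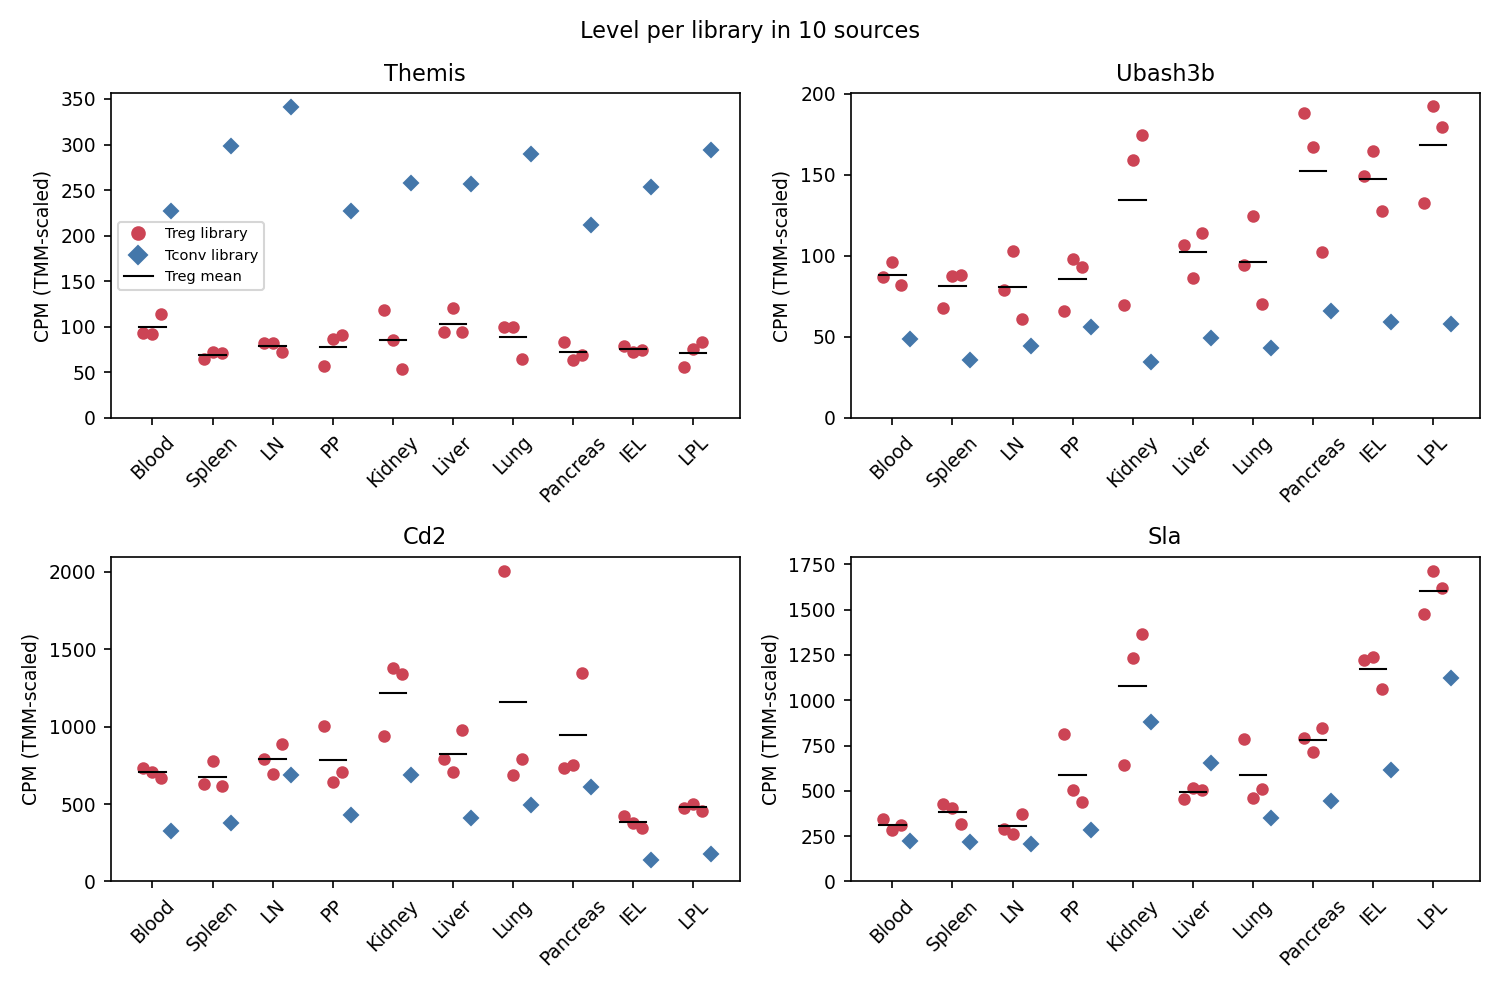
CPM of Themis, Ubash3b, Cd2 and Sla in each library by source, circles for Treg, diamonds for Tconv and a bar for the mean of 3 Treg libraries, on linear axes from 0. Themis is at 120 CPM or less in all Treg libraries and at 211 CPM or more in all Tconv libraries, and Sla reaches 1715 CPM in an LPL Treg library.

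To set kinases and adaptors against negative regulators, each library was given the median over a group of log2(CPM + 1), each gene taken relative to its own mean over the 40 libraries. The median of the 9 kinases and adaptors minus that of the 10 negative regulators averaged -0.18 ± 0.19 (SD, n = 30) in Treg and 0.36 ± 0.18 (SD, n = 10) in Tconv. The Treg libraries ran from -0.53 to 0.15 and the Tconv libraries from 0.07 to 0.67. The ranges overlapped between 0.07 and 0.15, where the liver Tconv library was the lowest of the Tconv and an IEL Treg library the highest of the Treg. No test is given for this difference, since the genes were chosen with results of these data in view. In the fit with source as a factor, the median log2 fold change was -0.13 over the kinases and adaptors and 0.08 over the negative regulators. That gap is smaller than the one between the Treg and Tconv averages of the library medians. Within Treg, the difference of library medians averaged -0.19 ± 0.19 (SD, n = 9) in lymphoid sources and -0.23 ± 0.14 (SD, n = 12) in solid organs. The gut wall sources stood apart from each other, with 0.07 ± 0.09 (SD, n = 3) in IEL and -0.40 ± 0.09 (SD, n = 3) in LPL, and PP had 0.01 ± 0.10 (SD, n = 3).

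**Figure D3:**
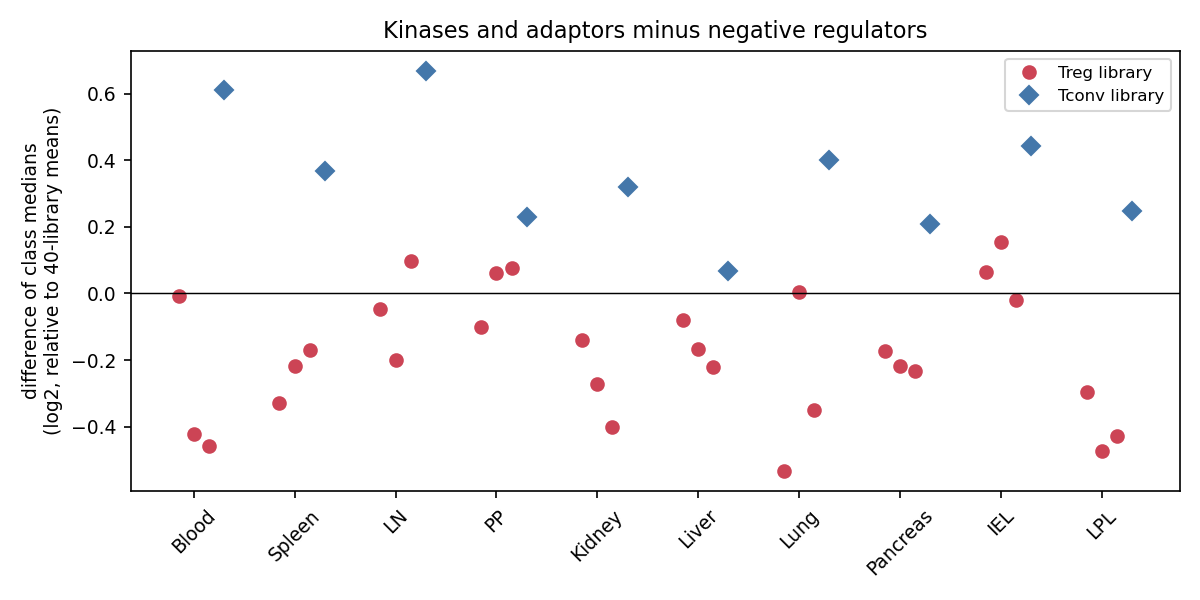
Median of the 9 kinases and adaptors minus the median of the 10 negative regulators in each library, on a log2 scale relative to the 40-library mean of each gene, circles for Treg and diamonds for Tconv. Treg libraries lie between -0.53 and 0.15 and Tconv libraries between 0.07 and 0.67.

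A list of 48 other genes of the pathway was read in the same fit. In Treg 6 of them were higher and 6 lower, beside the 9.86% and 7.26% of all genes, with a median log2 fold change of -0.03. The feedback inhibitor gene Spry1 (1.52 ± 0.33, SE) rose, whereas its relative Spry2 (-3.85 ± 0.75, SE) fell, with at most 25 counts in any Treg library. Ptprj, which encodes the receptor phosphatase CD148, rose by 1.49 ± 0.24 (SE) and the adaptor gene Dok1 by 0.68 ± 0.14 (SE). Pag1, whose product anchors the kinase Csk at the membrane, fell by 0.59 ± 0.13 (SE), and Ptpn11, the gene of the phosphatase SHP-2, fell by 0.56 ± 0.11 (SE).

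The second comparison asked whether Treg of different sources differ in these genes. In a test of any difference among the 10 sources, 25 of 36 members passed, against 34.5% of all genes tested. They included 3 of 4 receptor chains, 3 of 4 accessory receptors, 6 of 9 kinases and adaptors, 5 of 8 downstream genes and 8 of 10 negative regulators. Sla had the widest range of source means, from 308 CPM in LN to 1604 CPM in LPL, a factor of 5.21. Nfatc1 ranged over a factor of 3.94, Malt1 and Ptpn22 over 3.86 each, and Cd3d over 3.31. At the other end, Lat ranged over a factor of 1.42, Cd247 over 1.45 and Themis over 1.48, and none of these 3 passed the test among sources.

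**Figure D4:**
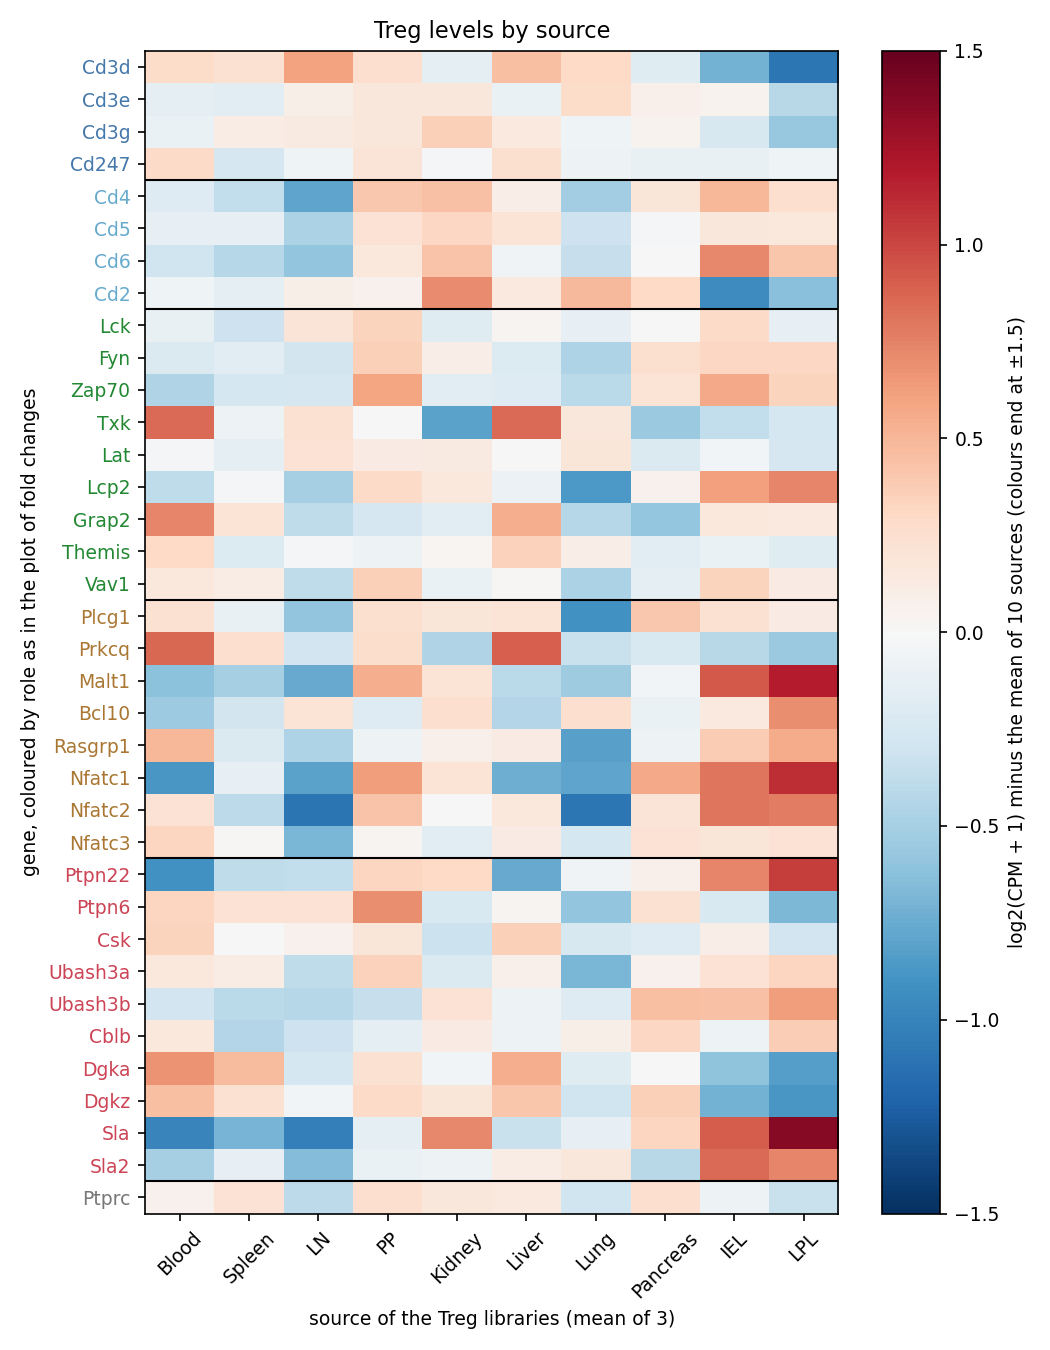
Mean log2(CPM + 1) of 3 Treg libraries per source for each of the 36 genes, relative to the gene's mean over 10 sources, grouped by role with colours ending at ±1.5. Sla, Malt1, Nfatc1 and Ptpn22 are highest in LPL, and Cd3d, Dgka and Dgkz are lowest there.

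Set against lymphoid Treg, tissue Treg had 13 members higher and 5 lower, beside 11.9% and 9.97% of all genes. The median log2 fold change was 0.10 over the members and 0.03 over all genes. By role, 3 of 4 accessory receptors, 3 of 9 kinases and adaptors, 2 of 8 downstream genes and 5 of 10 negative regulators rose, and 1 receptor chain, 1 downstream gene and 3 negative regulators fell. Only for Sla did the 18 tissue and the 9 lymphoid libraries not overlap, as for 0.0782% of all genes. Of 6 B cell markers 5 were lower in tissue Treg, with a sum of 0.00165% to 0.00677% of counts against 0.00301% to 0.0229% in lymphoid Treg, and Ms4a1 at 0 in 5 of 6 gut wall libraries. All 5 acinar markers, 2 of 6 intestinal epithelial markers and 1 of 7 myeloid markers were higher in tissue Treg. The part of these lists in the members' calls was not tested. In these bulk libraries, a change in the share of cells with a gene on and a change in RNA per cell cannot be told apart.

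Sla lay between 262 and 428 CPM in the 9 lymphoid libraries with a median of 319.6 CPM, and between 455 and 1715 CPM in the 18 tissue libraries with a median of 817 CPM. The lowest tissue libraries were those of liver and lung, and the highest those of LPL. The log2 fold change of Sla was 1.40 ± 0.13 (SE, edgeR adjusted p = 1.1e-07). Its relative Sla2 rose by 0.67 ± 0.12 (SE, edgeR adjusted p = 0.00034). Rab5if, which overlaps Sla2 on the opposite strand, had 40733 counts over the 40 libraries beside the 97410 of Sla2.

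Further negative regulators rose in tissue Treg. Ptpn22, a phosphatase gene whose product acts on Lck and Zap70, rose by 0.83 ± 0.16 on the log2 scale (SE, edgeR adjusted p = 0.00051) and Ubash3b by 0.65 ± 0.15 (SE, edgeR adjusted p = 0.0022). Cblb, a ubiquitin ligase gene, passed narrowly at 0.34 ± 0.12 (SE, edgeR adjusted p = 0.045) and was still called in 6 of the 30 fits that left 1 library out.

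Lower in tissue Treg were Dgka (-0.46 ± 0.14, SE) and Dgkz (-0.36 ± 0.12, SE), whose products remove the messenger diacylglycerol, and Ptpn6 (-0.47 ± 0.12, SE). Prkcq, whose product is activated by the same messenger, had -0.47 ± 0.11 (SE, edgeR adjusted p = 0.0041), and the receptor chain gene Cd3d had -0.60 ± 0.11 (SE, edgeR adjusted p = 0.00022). Dgka was not called without LN Treg 6, and Dgkz held in 22 of the 30 fits that left 1 library out. Against LN alone, Dgka and Prkcq turned to 0.06 and 0.05 and did not pass. Their mean levels in LN were 434 and 311 CPM, against 798 and 660 CPM in blood. Prkcq was highest in liver at 679.8 CPM and blood, and lowest in LPL at 247 CPM.

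Outside the group of negative regulators, Malt1 rose by 0.91 ± 0.17 (SE, edgeR adjusted p = 0.00034) and Nfatc1 by 0.77 ± 0.14 (SE, edgeR adjusted p = 0.0002). Cd6 (0.64 ± 0.10, SE), Cd4 (0.62 ± 0.13, SE) and the kinase and adaptor genes Lcp2 (0.41 ± 0.10, SE) and Zap70 (0.40 ± 0.09, SE) rose as well. Fyn (0.28 ± 0.09, SE) and Cd5 (0.34 ± 0.12, SE) passed and held in 20 and 7 of the 30 fits with 1 library left out. With the length offset Fyn had 0.18, Cd5 0.22 and Cblb 0.20, and none of these 3 passed, while Txk (-0.59) and Csk (-0.30) were called lower. With spleen alone as the reference only Cd6 and Sla of the 18 members were still called. Lcp2 was not called without lung Treg 5 and 6 and LN Treg 7 and 10, whose length correlations ran from -0.178 to -0.0847. Without LN Treg 6 the lower count was 3.

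Within tissues, the gut wall was set against the solid organs. Of the 36 members, 13 were higher and 7 lower in gut wall Treg, beside 13.0% and 10.6% of all genes, with a median of 0.18 over the members and 0.06 over all genes. None of the 4 receptor chains rose and 3 fell, 4 of 9 kinases and adaptors and 5 of 8 downstream genes rose, and the negative regulators were split, with 3 higher and 2 lower. The libraries of the 2 groups did not overlap for 5 members, Cd3d, Cd2, Lcp2, Malt1 and Sla2, and for 3.7% of all genes. Marker lists differed as well, with 6 of 6 intestinal epithelial markers higher and 5 of 5 acinar, 4 of 7 myeloid and 3 of 6 B cell markers lower in gut wall Treg. Of 5 CD8, gamma delta and natural killer markers 1 was higher and 2 lower, with Cd8a at a median of 15.7 CPM in the gut wall and 0.0752 CPM in the solid organs. In addition 1 B cell and 1 of 3 hepatocyte markers were higher, and 1 of 3 endothelial and 1 of the 3 tested kidney tubule markers lower. In the hepatocyte list Apoa1 had medians of 3.17 CPM in the gut wall and 0.0633 CPM in the solid organs. Ttr had 0.0657 and 0.669 CPM, and Alb was at 0 in 5 of 6 gut wall and 7 of 12 solid organ libraries. Myeloid markers summed to 0.00614% to 0.00942% of counts in the gut wall and 0.0116% to 0.182% in the solid organs. Adgre1 and Csf3r were at 0 in all 6 gut wall libraries, and in 2 and 7 of the 12 solid organ libraries. Cd68 was at 0 in none of these, with medians of 9.22 CPM in the gut wall and 5.25 CPM in the solid organs. Cst3 of the same list had medians of 72.9 and 131 CPM. The part of these markers in the result was not tested.

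The receptor chains had log2 differences of unlike size, and no test compared them with each other. Cd3d had 320, 245 and 315 CPM in the IEL Treg libraries and 234, 225 and 217 CPM in those of LPL. In the 12 solid organ libraries it lay between 376 and 805 CPM with a median of 501 CPM, so the groups stood apart. The log2 difference of Cd3d was -1.01 ± 0.14 (SE, edgeR adjusted p = 9.3e-06). Cd3g fell by 0.52 ± 0.11 (SE, edgeR adjusted p = 0.0012) and Cd3e by 0.28 ± 0.09 (SE, edgeR adjusted p = 0.018), the latter not called without LPL Treg 1. Cd247, on chromosome 1, had -0.10 ± 0.10 (SE) and did not pass, but with the length offset it had -0.30 and passed. The calls of Cd3d, Cd3g and Cd3e held with that offset. In bases, the gene models hold 1815 for Cd3d, 3269 for Cd3g, 4080 for Cd3e and 5329 for Cd247. Without the offset the falls thus ranked in the order of gene length, and the part of length in the differences between chains was not tested.

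Within a library, the log2 ratio of Cd3d to Cd3e CPM ran from -2.07 to -1.52 in gut wall Treg, from -1.61 to -0.23 in solid organ Treg and from -0.81 to -0.34 in lymphoid Treg. Gut wall and solid organ ratios overlapped through kidney, at -1.61 to -1.11, and pancreas lay at -1.35 to -1.26. The 2 gut wall Tconv libraries had ratios of -1.68 and -1.60, against -1.22 to -0.64 in solid organ and -0.65 to -0.46 in lymphoid Tconv, with no test. A ratio within a library does not depend on its scaling, but these ratios were not corrected for the length trend. The gene models hold 1815 bases for Cd3d and 4080 for Cd3e, and the part of that trend in the ratios was not tested. The promoters of both genes are printed above.

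**Figure D5:**
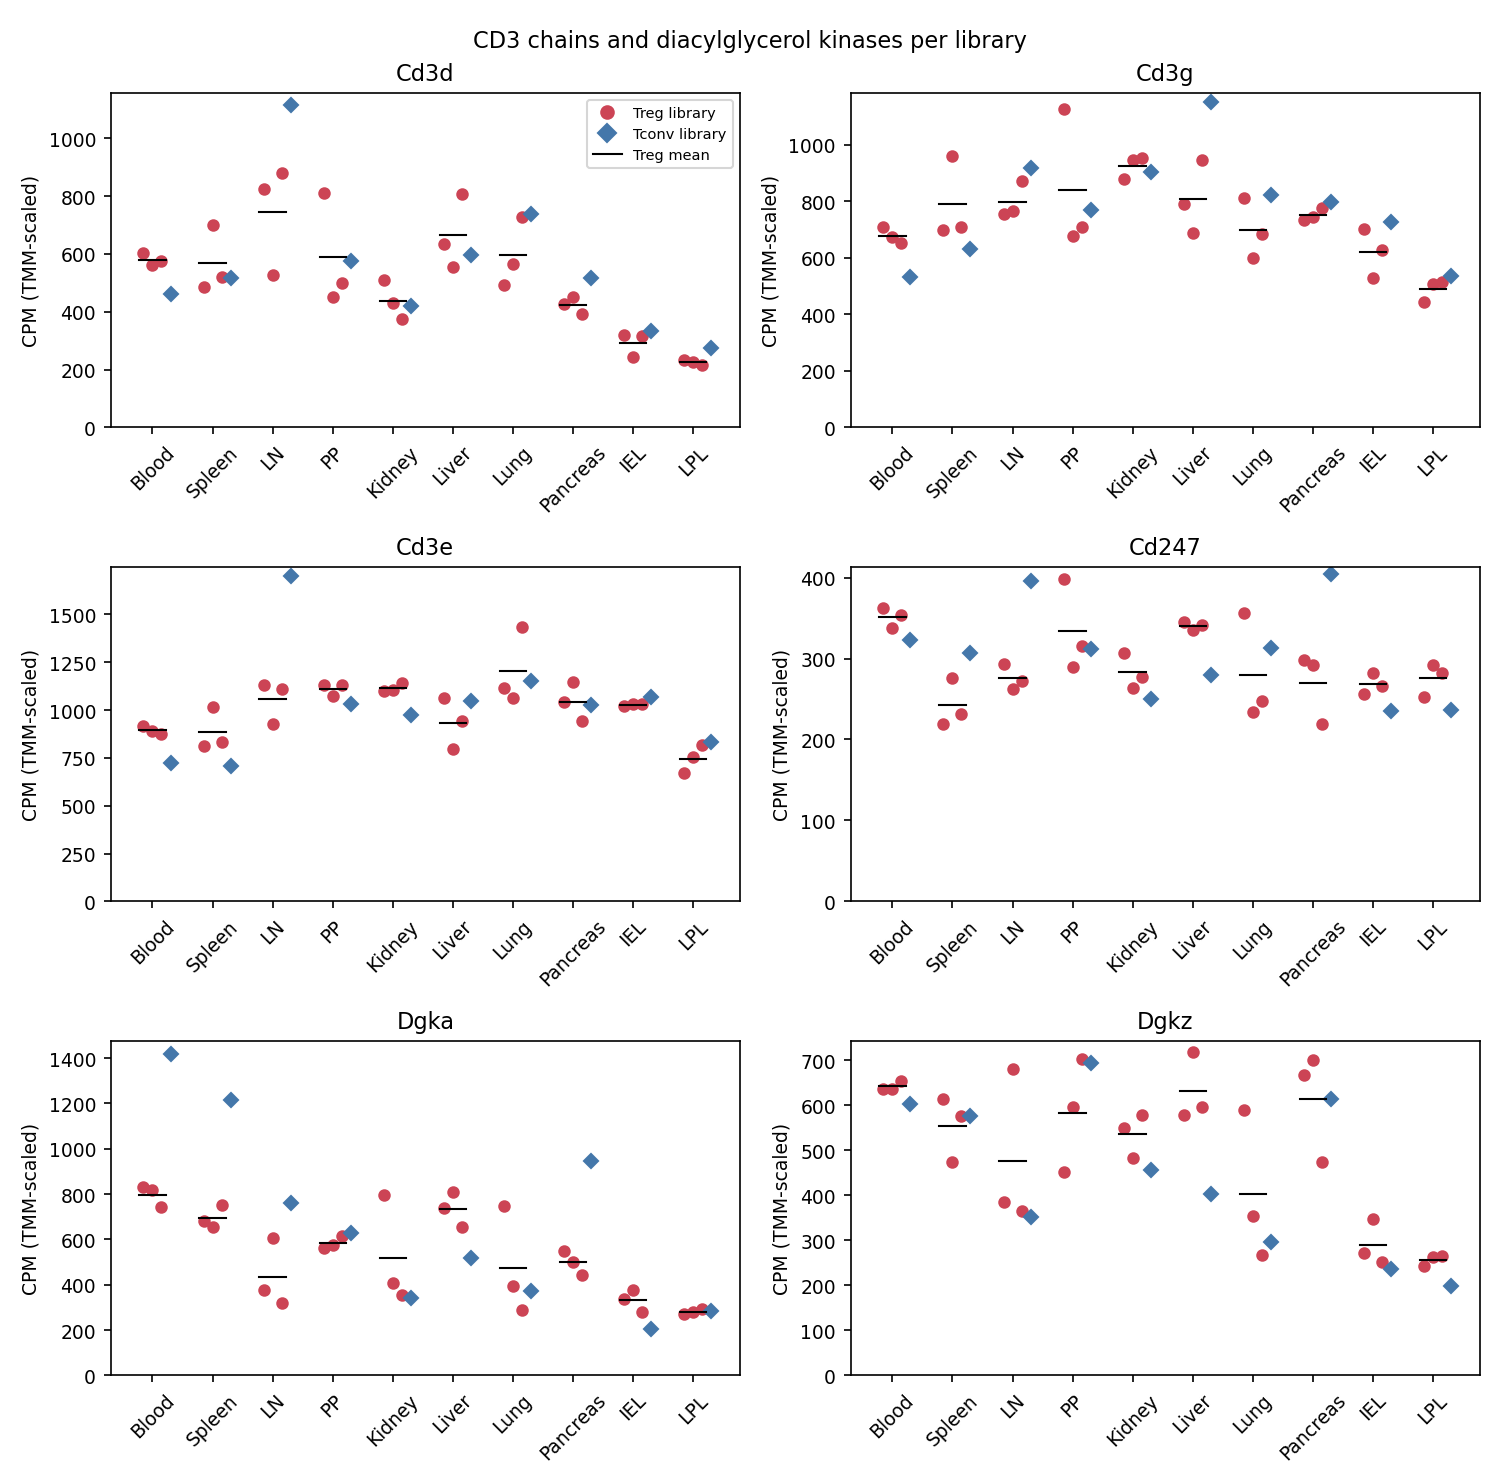
CPM of Cd3d, Cd3g, Cd3e, Cd247, Dgka and Dgkz in each library by source, circles for Treg, diamonds for Tconv and a bar for the mean of 3 Treg libraries, on linear axes from 0. Cd3d is at 320 CPM or less in all 6 gut wall Treg libraries and at 376 CPM or more in all 12 solid organ ones, while Cd247 ranges from 219 to 398 CPM over all Treg libraries.

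Cd2 was the member that fell most in the gut wall. Its 6 gut wall Treg libraries lay between 348 and 502 CPM, and the 12 solid organ libraries between 687 and 2003 CPM, the highest being lung Treg 1. The log2 difference was -1.25 ± 0.19 (SE, edgeR adjusted p = 2.6e-05), and it ran from -1.32 to -1.09 with any 1 library left out. IEL and LPL Tconv had the lowest Cd2 of the Tconv libraries, at 138 and 179 CPM. Dgkz fell by 0.98 ± 0.16 (SE, edgeR adjusted p = 7e-05), Dgka by 0.84 ± 0.18 (SE, edgeR adjusted p = 0.0011) and Prkcq by 0.46 ± 0.14 (SE, edgeR adjusted p = 0.02), the last not called without IEL Treg 3.

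The genes higher in gut wall than in solid organ Treg were led by Malt1, at 269 to 363 CPM against 69.1 to 261 CPM, with a log2 difference of 1.17 ± 0.19 (SE, edgeR adjusted p = 7.6e-05). Nfatc1 (1.13 ± 0.15, SE) and Nfatc2 (0.87 ± 0.26, SE) rose and Nfatc3 (0.21 ± 0.15, SE) did not pass. Lcp2 had 826 to 976 CPM in the gut wall and 253 to 729 CPM in the solid organs, and rose by 0.85 ± 0.11 (SE, edgeR adjusted p = 8.5e-06). Sla (0.97 ± 0.14, SE), Ptpn22 (0.92 ± 0.18, SE), Sla2 (0.84 ± 0.14, SE), Zap70 (0.58 ± 0.11, SE) and Cd6 (0.56 ± 0.12, SE) also rose. Rasgrp1, Bcl10, Vav1 and Fyn passed with differences from 0.38 (Fyn) to 0.59 (Rasgrp1), but none of these 4 passed with the length offset, which gave Fyn 0.20, Bcl10 0.23, Vav1 0.25 and Rasgrp1 0.40. Under it 11 members were called lower in place of 7, the added ones being Ptprc (-0.51), Themis (-0.47), Ptpn6 (-0.45) and Cd247 (-0.30). No share of all genes called under the offset stands beside that count. Of the 30 fits that left 1 library out, Rasgrp1 was called in 12, Bcl10 in 17, Vav1 in 23 and Fyn in 30.

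Each source was also set against the same 9 lymphoid Treg libraries, so these 7 comparisons share their reference. Against spleen alone, 2 members were called in PP, 3 in kidney, 2 in lung and 1 in pancreas. For these and the other alternative fits of single sources below, no share of all genes stands beside the member count. In IEL 13 members were higher and 5 lower (13.5% and 7.78% of all genes), and in LPL 14 were higher and 7 lower (17.4% and 9.68%). Sla was highest in LPL, with 1475, 1715 and 1621 CPM, a log2 fold change of 2.27 ± 0.18 (SE, edgeR adjusted p = 2.1e-09). Ptpn6 was called lower in LPL (-0.93 ± 0.22, SE) and Lck higher in IEL (0.37 ± 0.11, SE), though Lck had 0.21 with the length offset and did not pass. Intestinal epithelial markers, 6 of 6, were higher in both sources, as was 1 of 3 stromal markers. In IEL 1 of 5 CD8, gamma delta and natural killer, 1 of 7 myeloid and 1 of 3 hepatocyte markers were higher, and 3 of 6 B cell, 2 myeloid and 1 of 3 endothelial markers lower. In LPL 1 CD8, gamma delta and natural killer, 1 myeloid and 2 hepatocyte markers were higher, and 2 of the first list and 1 of the second lower. The part of these lists was not tested. Bcl10 was called only in LPL among the 7 sources (0.88 ± 0.19, SE), with no test between LPL and the others. Against LN alone Bcl10 was not called in LPL.

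PP, the lymphoid follicles of the gut, had 10 members higher and none lower (2.94% and 0.631% of all genes). Zap70 was among them, with 543, 399 and 418 CPM against 204 to 260 CPM in the lymphoid libraries (0.94 ± 0.14, SE, edgeR adjusted p = 0.00014), and so were Nfatc1 (1.20 ± 0.20, SE), Malt1 (1.21 ± 0.25, SE) and Lck (0.42 ± 0.11, SE). With the length offset 6 were called, and Lck, which was called in 14 of the 30 fits that left 1 library out, had 0.33 and did not pass. Of 6 intestinal epithelial markers 4 were higher in PP, at 0.00373% to 0.00666% of counts. So were 1 of 3 hepatocyte and 1 of 5 CD8, gamma delta and natural killer markers, and the part of these lists was not tested. Gm26917 took 3.56% of counts in PP Treg 1 and 0.67% to 0.869% in the other 2 libraries. Without PP Treg 1, which had the highest Zap70, 2 members were called in PP, without PP Treg 2 and 3 it was 6 and 5, and without LN Treg 10 it was 6. Neither Dgka (-0.08 ± 0.23, SE) nor Dgkz (0.09 ± 0.20, SE) nor Cd3d (-0.08 ± 0.18, SE) passed in PP.

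Kidney Treg had 10 members higher and 2 lower (12.2% and 4.25% of all genes). Txk was lower in kidney, with 78.1, 30.9 and 31.9 CPM (-1.02 ± 0.31, SE, edgeR adjusted p = 0.026), and Cd2 higher (0.76 ± 0.22, SE). Cd2 was not called there against spleen, LN or blood alone, nor Txk against spleen or LN alone. Kidney Treg 1 stood away from the other 2 for several members, for example Malt1 with 77.8 CPM against 233 and 261 CPM, and without kidney Treg 3 or 5 only 3 members were called. Gm26917 took 2.23% of counts in kidney Treg 1 and 0.823% and 0.862% in the other 2. Kidney tubule markers, 3 of the 3 tested of 4, were higher, with a sum of 0.00251% to 0.143% of counts against at most 0.000824% in lymphoid Treg. Myeloid markers were higher too (4 of 7, 0.014% to 0.0301% against 0.00905% to 0.0179%). So were 3 of 5 acinar and 2 of 3 hepatocyte markers and 1 each of the CD8, gamma delta and natural killer, intestinal epithelial and stromal lists, while 1 B cell marker was lower. Of 3 endothelial markers 2 were higher, Cdh5 and Kdr, each at 0 in 8 of 9 lymphoid Treg libraries. The endothelial sums, 0.00859% to 0.0187% against 0.00653% to 0.0281%, overlapped and mostly followed Pecam1. Pecam1 had a median of 168 CPM in lymphoid Treg and the lowest log2 fold change of its list in kidney, -0.53. The part of these lists was not tested. Pancreas Treg had 6 members higher and none lower (7.63% and 2.32%), among them Nfatc1 (1.18 ± 0.20, SE) and Ubash3b (0.88 ± 0.22, SE). Ubash3b was not called there against spleen, LN or blood alone, nor Nfatc1 against spleen alone. All 5 acinar markers and 2 of 7 myeloid markers were higher in pancreas, the latter summing to 0.0128% to 0.0748% of counts. So were 2 of 6 intestinal epithelial and 1 of 3 hepatocyte markers, while 1 of 6 B cell markers was lower, and the part of these lists was not tested. Without pancreas Treg 1 or 5 only 2 members were called there, and without kidney Treg 1, lung Treg 1 or LN Treg 6 it was 10 or 11.

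Lung Treg had 4 members higher and 3 lower (8.65% and 2.87%). Sla (0.81 ± 0.19, SE), Cd2 (0.68 ± 0.23, SE), Sla2 (0.59 ± 0.19, SE) and Cd3e (0.35 ± 0.11, SE) were called higher and Ptpn6 (-0.82 ± 0.22, SE), Prkcq (-0.62 ± 0.19, SE) and Lcp2 (-0.56 ± 0.16, SE) lower. Lung Treg 1 stood away from the other 2 lung libraries, with Cd2 at 2003 CPM against 687 and 794 CPM and Ptprc at 2665 CPM against 1143 and 818 CPM. Gm26917 took 1.57% of its counts and 0.272% and 0.305% in the other 2. In lung 3 of 7 myeloid markers were higher, with a sum of 0.0116% to 0.182% of counts, and so was the 1 lung epithelial marker tested of 2, with a list sum of 8.81e-05% to 0.0327% against at most 0.000138% in lymphoid Treg. Of 3 stromal markers 1 was higher, and the part of these lists was not tested. Of the 30 fits that left 1 library out, Cd2 and Sla2 were called in lung in 4 each and Cd3e in 5. Without lung Treg 1, Cd2 had 0.02 in place of 0.68 and was not called, nor were Sla and Ptpn6, and without lung Treg 6 Lcp2 and Cd3e were not. Without lung Treg 1 there were 11 members called, and Cd5 turned from 0.02 to -0.50 and passed. The lung count fell to 3 or 4 without any 1 of the other Treg libraries save IEL 3, kidney 1, LPL 1, lung 5, lung 6, pancreas 6 and spleen 3. Liver Treg had no member called in edgeR (0.977% of all genes were higher and 0.179% lower), while 3 of 3 hepatocyte markers were higher. At an unadjusted p below 0.05 there were 6 members, beside 2201 of 17909 genes. DESeq2 called 0 members in liver and limma-voom 7, and edgeR called 2 without LN Treg 6, with no share of all genes beside these counts. The largest log2 value in liver was 0.61 ± 0.18 (SE) for Prkcq, with an edgeR adjusted p of 0.1.

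The third comparison set 6 tissue Tconv libraries against 3 lymphoid Tconv libraries, with the source as the replicate. No gene of 14453 passed in edgeR (0.0%), 2102 had an unadjusted p below 0.05, and 1079 were called by DESeq2 and 1336 by limma-voom, while without the pancreas library edgeR called 109. Among the members 6 had an unadjusted p below 0.05, and DESeq2 called 3 and limma-voom 6. Sla had 223, 219.7 and 206 CPM in blood, spleen and LN Tconv and 351 to 1122 CPM in the 6 tissue libraries, which did not overlap (1.64 ± 0.37, SE, edgeR adjusted p = 0.12). Zap70 and Lat were the other 2 of the 3 members whose groups did not overlap in Tconv, where 7.56% of all genes did not. Dgka had 1417, 1215 and 759 CPM in lymphoid Tconv and 207 to 946 CPM in tissue Tconv (-1.37 ± 0.42, SE, edgeR adjusted p = 0.2).

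Whether tissue and lymphoid sources differ more in one cell type than in the other was tested directly in a fit of all 40 libraries, in which the single Tconv libraries are assumed to vary like the Treg. No member passed in edgeR, beside 0.521% of all genes in which the effect was higher in Treg and 1.23% in which it was lower. At an unadjusted p below 0.05 there were 2 members, beside 1911 of 14983 genes, and DESeq2 called 1 member and limma-voom 2. Over all genes 263 were called, and 138, 439 and 413 without blood Tconv, LN Treg 6 and pancreas Tconv. The smallest adjusted p was that of Dgka at 0.059, with a difference of 1.01 ± 0.28 (SE) that became 0.99 and passed with the length offset, and the next member was Cd4 with 0.64 ± 0.24 (SE, edgeR adjusted p = 0.22). For Sla the difference was -0.15 ± 0.24 (SE) and for Cd3d -0.10 ± 0.22 (SE). Of the 48 other pathway genes 2 passed, Stim1, the calcium sensor gene of the endoplasmic reticulum (0.78 ± 0.14, SE), and Socs1, a feedback inhibitor gene of cytokine signalling (-1.61 ± 0.30, SE).

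In Treg, 14 of the 48 other pathway genes were higher and 8 lower in tissue than in lymphoid sources, beside the 11.9% and 9.97% of all genes, with a median of 0.16. Tnfaip3, a feedback inhibitor gene of NF-kB, rose by 3.53 ± 0.45 (SE), Sh2d2a, an adaptor gene, by 1.02 ± 0.18 (SE), Ptprj by 1.01 ± 0.18 (SE) and Dok1 by 0.79 ± 0.14 (SE). The constant genes of the receptor beta chain, Trbc2 (-0.49 ± 0.08, SE) and Trbc1 (-0.37 ± 0.09, SE), fell, as did Tespa1 (-0.97 ± 0.17, SE) and Socs1 (-0.68 ± 0.14, SE). Trbc1 and Trbc2 are near-identical copies whose reads the counting could split, so their values are uncertain. Between gut wall and solid organs, 6 of the 48 were higher and 9 lower, beside the 13.0% and 10.6% of all genes. Dok1 rose by 1.85 ± 0.16 (SE) in the gut wall, and Trbc2, the adaptor gene Trat1 and Rac2 fell by 0.92 ± 0.11, 1.47 ± 0.24 and 0.58 ± 0.09 (SE).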

How the data were processed

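The authors deposited 1 table of raw counts per gene for 40 libraries. Per the labels' protocols, the libraries were QuantSeq 3′ libraries of polyadenylated RNA. Per the submitters' processing notes, FastQC, MultiQC, Trim Galore, STAR, featureCounts, DESeq2 and DESeq were used with mm10, and versions and the annotation release are not given in the sources used here. Such 3′ counts do not scale with gene length, and a gene's length column in the deposited table served only for the length offset.

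Tests on the counts were run with edgeR 4.0.16 under R 4.3.3 (filterByExpr, TMM, trended dispersion, robust quasi-likelihood F test, Benjamini-Hochberg over all genes tested). Treg against Tconv used 40 libraries with source as a factor, comparisons among Treg used 30 libraries with a mean per source, and the difference of tissue effects used 40 libraries with 1 mean for each cell type in each source. Levels are CPM with TMM factors. The tests were tested on simulated data. Alternatives were DESeq2 1.42.0 (size factors, and its own test), limma 3.58.1 voom, no filter, a length offset, a replicate block, other references, other pseudocounts and each library left out.

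All members could be named in any comparison, as could up to 4 other pathway genes per direction with the smallest p. The members, roles and lists were chosen with earlier results of these data known. Symbols were given to 55154 of 55421 identifiers by the reference annotation. Figures used matplotlib 3.10.9 in Python 3.11.15.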

Additional observations from a re-analysis of the deposited data

Results flagged for a closer look

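For 5 members the fitted means of the gut wall and the solid organs lay on opposite sides of lymphoid Treg, and the difference between the 2 was called in edgeR's quasi-likelihood test. The departures of each from lymphoid Treg were not tested over the grouped sources. Cd2 stood at a mean log2 of -0.74 in the gut wall and 0.51 in the solid organs relative to lymphoid Treg, a difference of -1.25. Cd3g stood at -0.44 and 0.08, a difference of -0.52, and Cd3e at -0.10 and 0.19, a difference of -0.28. Rasgrp1 stood at 0.50 and -0.09, a difference of 0.59, and Vav1 at 0.27 and -0.14, a difference of 0.41. The last 2 were not called with the length offset, and Cd3e was not called without LPL Treg 1.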

How the results depend on the processing

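All 10 members called between Treg and Tconv kept their direction and call under DESeq2 size factors, no filter, the DESeq2 test, limma-voom, the length offset and the replicate block. With any 1 library left out there were 5 higher and 5 lower, and 2235 to 2835 genes in all against 2565. With the replicate number joined with source as a block, 3 members were lower, Txk and Ptpn6 being lost, and 675 genes were called. Only blood, IEL, LPL, lung, pancreas and PP inform that block, since there a Treg and the Tconv library share a number. Same-numbered Treg libraries of different sources correlated from -0.37 to 0.18 in their deviations from source means (median -0.0026, 58 pairs). Pairs with different numbers ran from -0.24 to 0.38 (median -0.0002, 347 pairs), and 4 of 30 libraries correlated best with their own number. Libraries of 1 animal need not correlate in this measure, so it cannot decide whether the numbers mark shared animals.

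With the replicate block, 4 members were higher in tissue Treg in place of 13, 1 member was called in PP, 3 in kidney and 1 in the difference of tissue effects. Of those 13, Sla, Sla2 and Cd6 kept their call. Malt1, Nfatc1, Cd4, Lcp2, Zap70, Ptpn22, Ubash3b, Fyn, Cd5 and Cblb were not called with the block. The block called 3417 genes among sources (6178 without it), 1598 between tissue and lymphoid Treg (3915), 2168 between gut wall and solid organs (4226) and 157 in the difference of tissue effects (263). Against spleen alone, 2 members were higher and 0 lower in tissue Treg with 1370 genes in all, against blood alone 2124 genes were called, and against LN alone 1 member was lower. Prkcq turned to 0.0456 and Dgka to 0.0551 against LN alone, and Cblb to -0.0199 against blood alone. The single-source counts were 10 in PP, 12 in kidney, 0 in liver, 7 in lung and 6 in pancreas. Against spleen alone they were 2 in PP, 3 in kidney, 2 in lung and 1 in pancreas. Against blood alone 6 were called in PP, and against LN alone 1 in liver and 1 in lung. The cause was not tested.

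With limma-voom 12848 genes differed among sources, 6116 between tissue and lymphoid Treg, 6703 between gut wall and solid organs and 1336 between tissue and lymphoid Tconv. It called 6 members in Tconv, 2 in the difference of tissue effects, 18 in PP, 22 in kidney, 7 in liver, 1 in lung and 19 in pancreas. For single sources, no share of all genes stands beside the member counts of limma-voom or of the other alternatives. DESeq2 called 3 members and 1079 genes in Tconv, 1 member and 601 genes in the difference, and 10 members in pancreas. Without the low-count filter 16 genes were called in Tconv, 6 members in PP and 3 in lung. With the length offset 11 members were lower in gut wall Treg, 6 were called in PP and 1 in the difference. These counts also have no share of all genes beside them.

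With 1 library left out at a time, 23 to 32 members and 5296 to 7828 genes differed among sources. Tissue Treg had 10 to 15 members higher and 3 to 6 lower, with 3172 to 4486 genes called, and gut wall Treg had 10 to 16 higher and 6 to 8 lower, with 3346 to 5024 genes. In Tconv 0 members and 0 to 109 genes were called, and in the difference 0 to 1 members and 138 to 439 genes. The 1 member appeared without kidney Treg 1 or 5, lung Treg 1 or 6, LN Treg 6, or the Tconv library of liver, LN or pancreas. The members called were 13 to 20 in IEL, 16 to 25 in LPL, 2 to 12 in PP, 3 to 16 in kidney, 0 to 2 in liver, 3 to 11 in lung and 2 to 11 in pancreas. Cd5 in lung ran from -0.5026 without lung Treg 1 to 0.2157 without lung Treg 5. The group medians of kinases and adaptors minus negative regulators moved by less than 1 SD with other pseudocounts or plain CPM. Leaving out lung Treg 5 and 6 and LN Treg 7 and 10 together was chosen after seeing the data. All 36 members passed the low-count filter, with at least 12197980 counts in every library, and the single Tconv library per source allows no measure of spread within a source.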
